A study of Mus musculus with 6 samples.

Results

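The genes described here are integrins, selectins and other cell adhesion molecules, together with a few cytoplasmic proteins that work at integrin tails, in haematopoietic stem cells (HSCs) of the genotype Chrm1-/-, which lacks a muscarinic acetylcholine receptor gene. The 47 genes were taken from a list of adhesion genes by symbol and matched to transcript clusters, the probe groups that each stand for a transcript, on an Affymetrix mouse gene array. Of the 47 genes, 43 had a cluster of their own among 22180 genes, and 28 reached the filter for testing, a mean log2 signal of 6.77, which is the median gene's. Itga10, Cd99, Ptk2 and Ilk had no cluster that named them alone, and 15 genes lay below the filter.

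Steady state bone marrow was sorted for cells without lineage markers and Flt3 that carried Sca1 and cKit. The groups were Chrm1-/- HSCs on 3 arrays and WT HSCs on 3 arrays, with steady state marrow in both. The strain label is C57Bl/6 for both, while the source label of the WT samples spells it C67Bl/6 and that of the Chrm1-/- samples names no strain. The study asks how this receptor prepares HSCs to leave the marrow, and the comparison here asks which adhesion transcripts differ before any mobilizing stimulus. The labels used here state no age, sex or extent of the deletion, and do not say whether arrays come from separate mice. The p-values therefore reflect the spread of these arrays alone, and part or all of it may be technical.

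Integrins are heterodimers of an alpha and a beta chain that bind matrix proteins or receptors on other cells. They are activated from inside the cell, when talin and a kindlin bind the beta tail. In the marrow, integrins, selectin ligands and immunoglobulin superfamily receptors hold HSCs near stromal and endothelial cells, and cells that leave the niche must release these contacts.

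The array medians lay between 6.49 and 6.57, so the deposited columns were on a common scale. The Chrm1 cluster of higher signal read 8.16, 7.52 and 7.58 on the Chrm1-/- arrays, against 7.45, 7.44 and 7.67 on the WT arrays, and its other cluster 5.74, 5.76 and 5.60 in Chrm1-/-, against 5.80, 5.75 and 5.68 in WT. Whether these probes lie in the deleted part is not stated, so they do not check the labels. Kit, the stem cell factor receptor used in the sort, read 10.99, 10.86 and 10.79 in Chrm1-/- and 10.95, 10.91 and 10.85 in WT. All 14 genes of the HSC marker list on the array passed the filter. Of these, 7 had higher and 7 lower means in Chrm1-/-, with a median difference of 0.00. The list mixes genes that HSCs carry with Cd48, which HSC sorts select against, so its signs are not a measure of HSC content. The groups of 13 overlapped, among them Fgd5 with a log2 difference of 0.38 and Cd48 with -0.38. The remaining gene, Procr, a surface receptor used to purify HSCs, did not overlap. It read 8.16, 8.19 and 8.24 in Chrm1-/-, below the WT values of 8.40, 8.45 and 8.50. This 1 gene was 7.14% of the 14, beside 5.79% of all tested genes. Its unadjusted p of 0.0393 in limma was above 0.05 in all 6 fits that left out 1 array. WT replicate 3 correlated least with the arrays of its group, at a mean r of 0.918, where the other 5 arrays had 0.925 or 0.926. The mean r with arrays of the other group ran from 0.9225 for WT replicate 3 to 0.9288 for WT replicate 1. It was above the mean r within the group for every array except Chrm1-/- replicate 3 (0.9248 against 0.9254), so the arrays did not group by genotype on this measure. Signals of different genes come from different probes, so levels are compared between groups for a gene and not between genes.

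Most adhesion genes had overlapping signals in Chrm1-/- and WT HSCs, and 4 did not overlap. Alcam, Itga2 and Itgb4 were higher on all 3 Chrm1-/- arrays than on any WT array, and Itgb2 was lower on all 3. These 4 were 14.3% of the 28 tested adhesion genes, beside 5.79% of all 11094 tested genes, of which 2.81% were higher and 2.97% lower. Alcam, Itga2 and Itgb2 also had an unadjusted p under 0.05 in limma, 10.7% of the 28 beside 2.99% of all tested genes (1.4% higher and 1.6% lower). Because the genes were chosen with earlier results of these data known, these shares are description and not a test of an excess. After Benjamini-Hochberg adjustment over all tested genes 0 adhesion genes passed in limma, all 28 having an adjusted p of 0.996, and 0 of the 11094 genes passed (0%), where 332 had an unadjusted p under 0.05.

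The 28 tested genes split nearly evenly in sign, with 15 higher and 13 lower means in Chrm1-/-. Their median log2 difference was 0.04, beside 0.00 for all tested genes. Single differences ran from -0.47 for Itgb2 to 0.81 for Itga2. The spread between replicates was like that of other genes, with a median pooled SD of 0.207 for the adhesion genes and 0.220 for all tested genes. The 15 genes below the filter had mean signals from 5.54 to 6.70 and differences from -0.09 to 0.18 in a fit without the filter. None of those 15 had groups that did not overlap or an unadjusted p under 0.05 in limma.

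**Figure D1:**
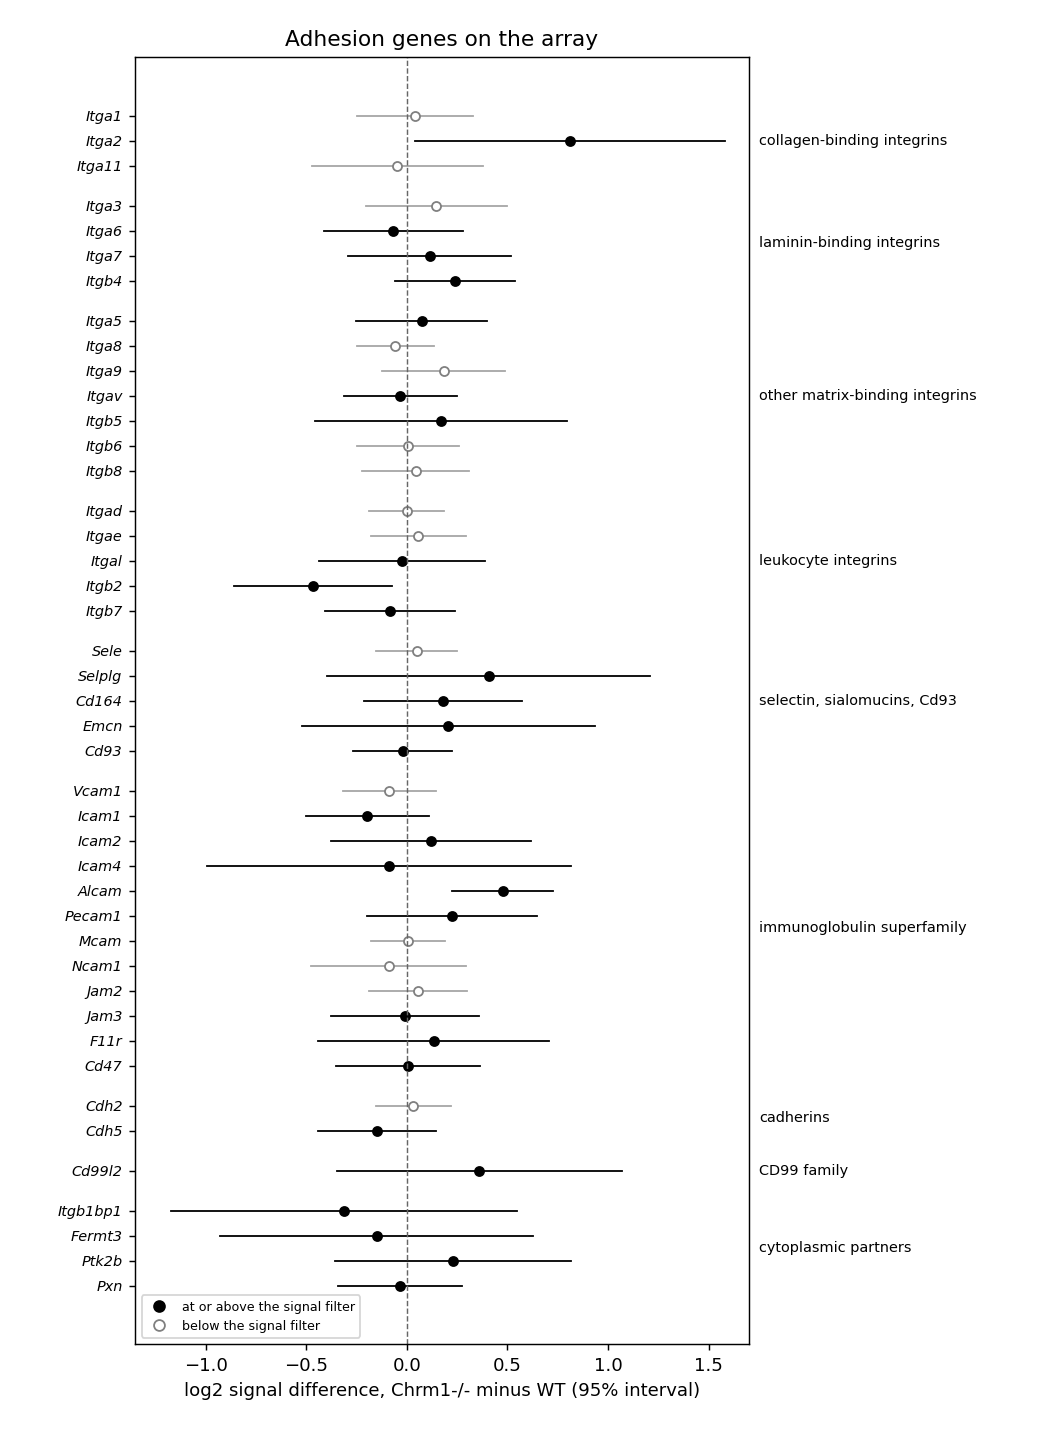
Log2 signal difference, Chrm1-/- minus WT, for the 43 adhesion genes on the array (x axis), grouped by role, with limma's 95% intervals as lines. Filled points are the 28 genes at or above the signal filter and open points the 15 below it. The intervals of Alcam, Itga2 and Itgb2 do not cross 0.

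Alcam (CD166) is an immunoglobulin superfamily receptor that binds copies of itself and the T cell receptor CD6, and in mice it is found on HSCs and on niche cells. Alcam read 9.60, 9.66 and 9.50 in Chrm1-/- HSCs, against 9.09, 9.17 and 9.07 in WT HSCs. The 2 groups stood well apart, and the replicates within each lay close together. The log2 difference was 0.48 ± 0.10 (SE, n = 3 each; 95% interval 0.23 to 0.73), a 1.39-fold higher signal, with an unadjusted p of 0.00328 and an adjusted p of 0.996 in limma. Leaving out each array in turn kept the difference between 0.44 and 0.52 and the unadjusted p in limma between 0.0057 and 0.0127.

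Itga2 (CD49b) is the alpha chain that pairs with the beta-1 chain to form a collagen receptor, and it is known from platelets, natural killer cells and part of the HSC compartment. Itga2 read 7.60, 8.31 and 7.20 in Chrm1-/- HSCs, against 7.17, 6.99 and 6.52 in WT HSCs. The groups did not overlap, but Chrm1-/- replicate 3 lay only just above WT replicate 1. The log2 difference was 0.81 ± 0.32 (SE, n = 3 each; 95% interval 0.04 to 1.58), with an unadjusted p of 0.0423 and an adjusted p of 0.996 in limma. The unadjusted p in limma was above 0.05 in 4 of the 6 fits that left out 1 array (Chrm1-/- replicate 1 or 2, WT replicate 2 or 3), and the difference was 0.51 without Chrm1-/- replicate 2, the highest array, and 0.62 without WT replicate 3, the lowest. The 10 megakaryocyte and platelet markers had a mean log2 signal between 6.92 and 7.15 on Chrm1-/- arrays and between 7.06 and 7.12 on WT arrays. Of the 5 that passed the filter, 2 had higher and 3 lower means in Chrm1-/-, from 0.22 for Itgb3 to -0.88 for Pf4. Of these only Treml1 (-0.35, lower) did not overlap, 20% of the 5 beside 5.79% of all tested genes. The 5 below the filter differed by -0.38 to 0.56, and Gp5 (-0.38) and Tubb1 (-0.17) were lower on all Chrm1-/- arrays. The closest Tubb1 values were 6.38 in Chrm1-/- and 6.39 in WT. The share of such genes among all genes below the filter was not computed, so these are given as description only. The mean of 8 T and natural killer cell markers lay between 6.80 and 7.18 on the Chrm1-/- arrays and between 6.73 and 7.05 on the WT arrays. Of these 8, the 2 that passed the filter were Gzma, with a log2 difference of 0.49, and Nkg7, with -0.02. Both had overlapping groups. Of these lists, 5 of the 10 markers and 6 of the 8 lay below the signal filter. The part of these markers in the Itga2 difference was not tested.

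The promoters of Alcam and Itga2 are printed because these are the 2 adhesion genes that were higher in Chrm1-/- HSCs at an unadjusted p under 0.05. Each covers 250 bases before and 50 after the gene's start in RefSeq (GRCm38.p6, minus strand), at chr16:52453032-52453331 for Alcam and chr13:114932051-114932350 for Itga2. Of the 47 adhesion genes, 26 had an entry in that table. Capitals mark matches on either strand to GGGCGG (the GC box), CCAAT (the CCAAT box), TATAAA (the TATA box), AGAACA (the core of a glucocorticoid response element) and GAGGAA (a core of ETS factor sites).
Alcam: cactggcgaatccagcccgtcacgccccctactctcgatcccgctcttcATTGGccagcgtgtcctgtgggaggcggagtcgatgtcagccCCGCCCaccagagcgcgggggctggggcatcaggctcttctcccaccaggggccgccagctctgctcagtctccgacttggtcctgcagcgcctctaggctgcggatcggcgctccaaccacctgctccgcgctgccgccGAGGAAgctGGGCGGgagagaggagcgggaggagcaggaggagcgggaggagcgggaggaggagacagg
Itga2: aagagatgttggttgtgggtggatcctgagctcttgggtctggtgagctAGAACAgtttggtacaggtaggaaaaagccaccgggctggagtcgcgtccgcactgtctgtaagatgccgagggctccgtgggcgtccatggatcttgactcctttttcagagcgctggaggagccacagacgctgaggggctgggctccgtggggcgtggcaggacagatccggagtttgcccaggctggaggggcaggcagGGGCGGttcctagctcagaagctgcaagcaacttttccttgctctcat
The Alcam promoter held 25 CpG pairs and 69.7% G and C, against 13 CpG pairs and 59.3% for Itga2, where the medians over 32851 promoters were 7 and 52.7%. GGGCGG occurred 2 times in the Alcam promoter and 1 time in that of Itga2, and 35.7% of all promoters hold it. Alcam's promoter also held CCAAT and GAGGAA, 1 time each, present in 37.4% and 28.3% of all promoters. AGAACA occurred 1 time in the Itga2 window, as in 19% of all promoters, and was not among the letters of the Alcam window. TATAAA, present in 13.6% of all promoters, was in neither window. A match is a description of letters only.

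Itga2 was the one collagen-binding chain above the filter. Itga1 had a mean signal of 6.34 in Chrm1-/- and 6.30 in WT, and Itga11 one of 6.39 and 6.44, both below the filter. Itgb1, the beta chain shared by all collagen-binding integrins and named here as their partner, read 11.18, 11.13 and 11.18 in Chrm1-/- HSCs, against 11.12, 10.96 and 10.75 in WT HSCs. Its groups were separated by 0.01, with a log2 difference of 0.22 ± 0.13 (SE, n = 3 each) and an unadjusted p of 0.133 in limma.

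**Figure D2:**
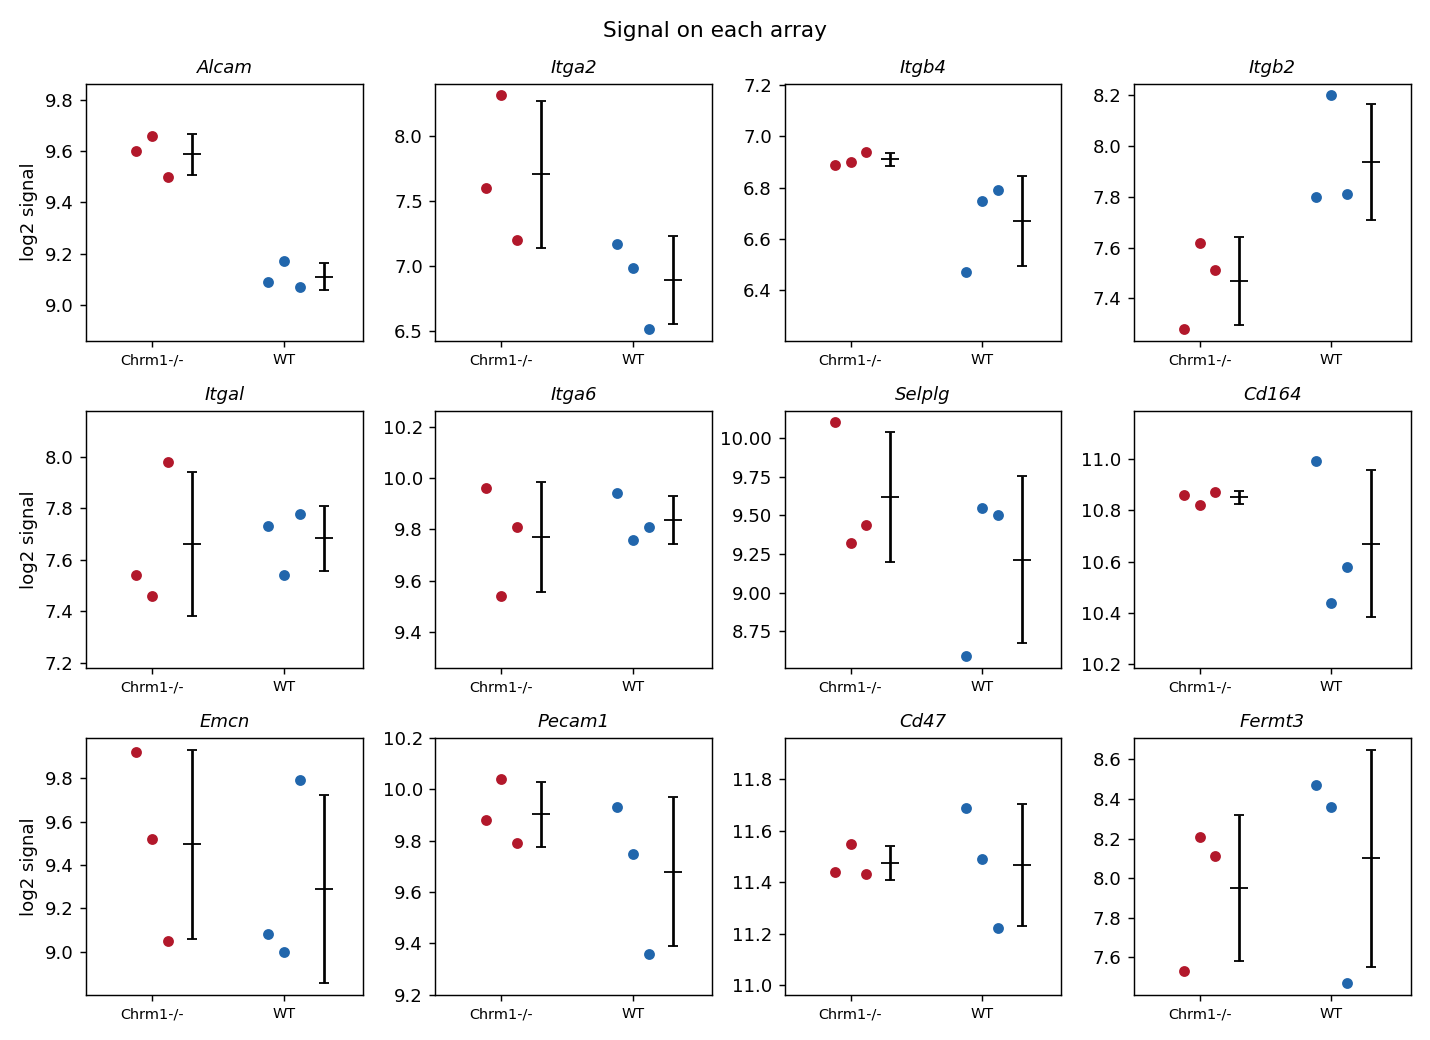
Log2 signal (y axis) of 12 adhesion genes on the 3 Chrm1-/- and 3 WT arrays, 1 point per array in the order of replicates 1 to 3, with the mean and SD beside the points; each panel has its own y range. Alcam, Itga2 and Itgb4 are higher and Itgb2 lower on all 3 Chrm1-/- arrays, and the other 8 genes overlap.

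Laminin-binding integrins include the alpha-6 chain, an HSC receptor for the laminins of marrow vessels. Itga6 read 9.96, 9.54 and 9.81 in Chrm1-/- HSCs, against 9.94, 9.76 and 9.81 in WT HSCs, with overlap and a log2 difference of -0.07 (95% interval -0.41 to 0.28). Itgb4, the beta chain that pairs with alpha-6 at epithelial anchoring junctions, read 6.89, 6.90 and 6.94 in Chrm1-/- HSCs, against 6.47, 6.75 and 6.79 in WT HSCs. The Itgb4 groups did not overlap, but its signal was just above the filter and the log2 difference of 0.24 ± 0.12 (SE, n = 3 each) had an unadjusted p of 0.0986 in limma. Without WT replicate 1, the lowest array, it was 0.14 (unadjusted p of 0.253 in limma). Itga7, another laminin receptor chain, differed by 0.11 (95% interval -0.29 to 0.52), and Itga3 lay below the filter.

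Chains that bind fibronectin, vitronectin and related matrix proteins overlapped throughout. Itga5, the alpha chain of the main fibronectin receptor, read 7.49, 7.49 and 7.75 in Chrm1-/- HSCs, against 7.36, 7.50 and 7.65 in WT HSCs. Itgav, whose product pairs with several beta chains and binds vitronectin, read 8.57, 8.58 and 8.42 in Chrm1-/- HSCs, against 8.61, 8.42 and 8.64 in WT HSCs. Their log2 differences were 0.07 (95% interval -0.25 to 0.40) for Itga5 and -0.03 (95% interval -0.31 to 0.25) for Itgav. Itgb5, a partner of alpha-v, differed by 0.17 with a wide 95% interval from -0.46 to 0.80. Itga9, the alpha chain of a receptor for tenascin-C and osteopontin, lay below the filter and read 6.77, 6.74 and 6.87 in Chrm1-/- HSCs, against 6.83, 6.58 and 6.42 in WT HSCs. The other chains below the filter, Itga8, Itgb6 and Itgb8, had differences between -0.06 and 0.04.

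Leukocyte integrins share a small set of beta chains, and Itgb2 (CD18) encodes the one that pairs with the alpha chains of LFA-1 and Mac-1. Itgb2 read 7.28, 7.62 and 7.51 in Chrm1-/- HSCs, against 7.80, 8.20 and 7.81 in WT HSCs. All Chrm1-/- arrays were lower, and the closest values of the groups were 7.62 and 7.80. The log2 difference was -0.47 ± 0.16 (SE, n = 3 each; 95% interval -0.86 to -0.07), with an unadjusted p of 0.0271 and an adjusted p of 0.996 in limma. In 3 of the 6 fits that left out 1 array (Chrm1-/- replicate 1 or 3, WT replicate 2) the unadjusted p in limma was above 0.05, and the difference ran from -0.54 to -0.34.

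Itgal, the alpha chain that makes LFA-1 with Itgb2, read 7.54, 7.46 and 7.98 in Chrm1-/- HSCs, against 7.73, 7.54 and 7.78 in WT HSCs, with a log2 difference of -0.02 (95% interval -0.44 to 0.39). Itgb7, the partner of alpha-4 and alpha-E, read 6.70, 6.98 and 6.94 in Chrm1-/- HSCs, against 7.01, 6.80 and 7.06 in WT HSCs. Both overlapped, and whether Itgb2 differed more than Itgal was not tested. Itgad and Itgae lay below the filter with differences of 0.00 and 0.06.

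Itgb2 is also a gene of mature myeloid cells, which the sort against lineage markers is meant to remove, and their markers are given beside it. The 11 neutrophil markers had a mean log2 signal between 6.93 and 7.14 on Chrm1-/- arrays and between 7.10 and 7.24 on WT arrays. The 4 that passed the signal filter had lower means in Chrm1-/- with overlapping groups. They were Elane, Mpo, Prtn3 and Ctsg, granule genes that immature myeloid cells also express. The other 7 lay below the filter, with differences of both signs, from -0.30 to 0.21. The 11 macrophage markers had a mean log2 signal between 6.52 and 6.69 on Chrm1-/- arrays and between 6.50 and 6.85 on WT arrays. Of the macrophage markers, 3 passed the signal filter, 2 with higher and 1 with lower means in Chrm1-/-. C1qa and C1qb, complement genes of macrophages, had log2 differences of 0.08 and 0.18 with overlapping groups. Cd68, a lysosomal glycoprotein gene, was 8.47, 8.16 and 8.19 in Chrm1-/- and 8.79, 9.0 and 10.25 in WT. Cd68 did not overlap, with a log2 difference of -1.07 ± 0.39 (SE, n = 3 each) and an unadjusted p of 0.0309 in limma that was above 0.05 in the 3 fits leaving out a Chrm1-/- array. Cd68 was 33.3% of the 3 tested macrophage markers. Beside it, 5.79% of all tested genes did not overlap, and 2.99% fell below 0.05 in limma before adjustment. Without WT replicate 3, its highest array, the Cd68 difference was -0.62. The part of these markers in the Itgb2 difference was not tested. In sorted populations fewer cells of a type and less RNA per cell cannot be told apart.

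**Figure D3:**
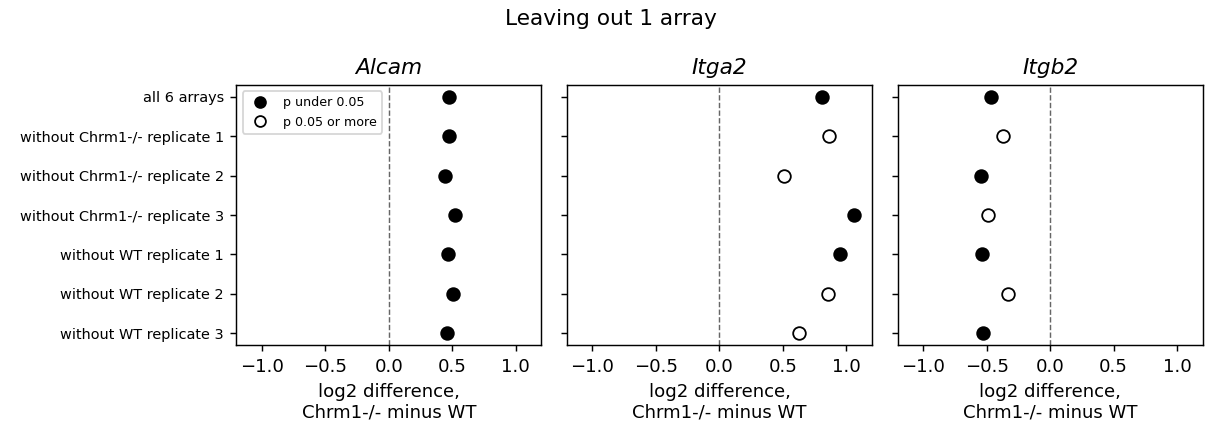
Log2 signal difference, Chrm1-/- minus WT (x axis), of Alcam, Itga2 and Itgb2 with all 6 arrays and after leaving out each array in turn (rows). Filled points have an unadjusted p under 0.05 in limma; Alcam kept it in all 6 fits, Itgb2 in 3 and Itga2 in 2, and the sign did not change in any of them.

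Genes of rolling contact and of the cell surface mucins had overlapping groups. Selplg encodes PSGL-1, the ligand through which HSCs roll on endothelial selectins. Selplg read 10.10, 9.32 and 9.44 in Chrm1-/- HSCs, against 8.59, 9.55 and 9.50 in WT HSCs. Its log2 difference of 0.41 ± 0.33 (SE, n = 3 each) came with 1 high Chrm1-/- array and 1 low WT array, and it was 0.06 in the other Selplg cluster. It was 0.17 without Chrm1-/- replicate 1 and 0.095 without WT replicate 1. Cd164, a sialomucin that takes part in the adhesion and migration of progenitors, read 10.86, 10.82 and 10.87 in Chrm1-/- HSCs, against 10.99, 10.44 and 10.58 in WT HSCs, a log2 difference of 0.18 ± 0.16 (SE, n = 3 each). On leaving out 1 array the Cd164 difference ran from 0.065 without WT replicate 2 (unadjusted p of 0.708 in limma) to 0.34 without WT replicate 1 (0.0316).

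Emcn, the sialomucin endomucin of endothelium and HSCs, read 9.92, 9.52 and 9.05 in Chrm1-/- HSCs, against 9.08, 9.0 and 9.79 in WT HSCs. Each group held high and low arrays, and the 95% interval of the log2 difference of 0.21 ran from -0.52 to 0.94. Cd93, a C-type lectin-like receptor of stem cells and endothelium, varied least among the tested genes of this set. It read 8.95, 8.88 and 8.92 in Chrm1-/- HSCs, against 9.01, 8.95 and 8.85 in WT HSCs, a log2 difference of -0.02 (95% interval -0.27 to 0.23). Sele, the selectin of activated endothelium, lay below the filter.

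Alcam aside, the immunoglobulin superfamily genes did not separate the groups. Of its 8 tested genes, 5 had higher and 3 lower means in Chrm1-/-. Pecam1, which mediates contact between leukocytes and endothelium, read 9.88, 10.04 and 9.79 in Chrm1-/- HSCs, against 9.93, 9.75 and 9.36 in WT HSCs, a log2 difference of 0.22 ± 0.17 (SE, n = 3 each). It was 0.063 without WT replicate 3 and 0.35 without WT replicate 1. Cd47, the signal that protects cells from phagocytosis through its receptor Sirpa, read 11.44, 11.55 and 11.43 in Chrm1-/- HSCs, against 11.69, 11.49 and 11.22 in WT HSCs. The Cd47 values of Chrm1-/- lay inside the range of WT, with a log2 difference of 0.01 (95% interval -0.35 to 0.36).

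The ligands of the Itgb2 integrins were also among the overlapping genes. Icam1 read 6.83, 6.79 and 6.93 in Chrm1-/- HSCs, against 6.93, 7.24 and 6.97 in WT HSCs, so that the groups met at 6.93. Its log2 difference of -0.20 ± 0.13 (SE, n = 3 each) had an unadjusted p of 0.167 in limma. Icam2 read 7.81, 8.13 and 7.81 in Chrm1-/- HSCs, against 7.60, 7.59 and 8.20 in WT HSCs, and Icam4, a red cell adhesion gene, had the widest replicate spread of the 28, with a pooled SD of 0.55. Vcam1, the alpha-4 integrin ligand of stroma and macrophages, lay below the filter at 5.81, 6.03 and 5.96 in Chrm1-/- HSCs, against 5.95, 6.03 and 6.08 in WT HSCs.

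The junctional adhesion molecules form contacts between cells and bind leukocyte integrins. Jam3 read 6.77, 7.01 and 6.84 in Chrm1-/- HSCs, against 6.72, 7.14 and 6.78 in WT HSCs, a log2 difference of -0.01 (95% interval -0.37 to 0.36). Jam2, a partner of Jam3, lay just below the filter at 6.70, 6.77 and 6.71 in Chrm1-/- HSCs, against 6.51, 6.72 and 6.78 in WT HSCs. F11r (JAM-A) differed by 0.13 (95% interval -0.44 to 0.71). Mcam and Ncam1 lay below the filter.

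Cadherins bind their own kind on neighbouring cells. Cdh5, the cadherin of endothelial junctions, read 7.08, 7.38 and 7.12 in Chrm1-/- HSCs, against 7.34, 7.30 and 7.38 in WT HSCs, a log2 difference of -0.15 ± 0.12 (SE, n = 3 each). The mean of 14 endothelial markers lay between 6.75 and 6.83 on the Chrm1-/- arrays and between 6.74 and 6.80 on the WT arrays. Of the 14, 7 passed the signal filter, and Kdr, Plvap and Flt1 were among those below it. The 7 had 4 higher and 3 lower means in Chrm1-/-, from -0.29 for Ramp2 to 0.33 for Robo4. Only Ramp2 did not overlap, 14.3% of the 7 beside 5.79% of all tested genes. Cdh2, N-cadherin, lay below the filter and read 6.20 on 5 of the 6 arrays. Cd99l2, of the CD99 family that serves passage through endothelium, differed by 0.36 with a 95% interval from -0.35 to 1.07, and its low array was WT replicate 3 at 6.80.

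The genes of proteins that act at integrin tails had overlapping groups throughout. Fermt3 encodes kindlin-3, the kindlin of blood cells, which activates their integrins together with talin. Fermt3 read 7.53, 8.21 and 8.11 in Chrm1-/- HSCs, against 8.47, 8.36 and 7.47 in WT HSCs, so that Chrm1-/- replicate 1 and WT replicate 3 were both low. Itgb1bp1 (ICAP-1), an inhibitor that binds the beta-1 tail, was low on the same 2 arrays, at 7.47, 8.37 and 8.22 in Chrm1-/- HSCs, against 8.55, 8.75 and 7.70 in WT HSCs. The log2 differences were -0.15 (95% interval -0.93 to 0.63) for Fermt3 and -0.31 (95% interval -1.17 to 0.55) for Itgb1bp1, and the other Itgb1bp1 cluster differed by -0.07. Ptk2b (Pyk2), a focal adhesion kinase family member of blood cells, differed by 0.23 (95% interval -0.36 to 0.82), and Pxn, the scaffold paxillin, by -0.03 (95% interval -0.34 to 0.27).

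Of the further genes that work with these receptors, 58 were tested in 4 lists, and 3 of them had an unadjusted p under 0.05 in limma, all with higher means in Chrm1-/-. These 3 were 5.17% of the 58, beside 2.99% of all tested genes, and 0 passed after adjustment. Because the lists were chosen with earlier results of these data known, shares over them are description and not a test of an excess. By list, 1 of 14 other adhesion receptors and 2 of 29 integrin adaptors and kinases had such a p, but 0 of 3 matrix ligands and 0 of 12 genes of selectin ligand glycosylation. The medians of the lists were -0.02, 0.06, 0.01 and -0.05 in that order.

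Cd151, a tetraspanin that associates with laminin-binding integrins, read 7.91, 8.37 and 8.20 in Chrm1-/- HSCs, against 7.22, 7.83 and 7.46 in WT HSCs. Git1, an adaptor that binds paxillin and turns over focal adhesions, read 7.58, 7.69 and 7.15 in Chrm1-/- HSCs, against 6.54, 6.96 and 6.74 in WT HSCs. Skap2, a cytoplasmic adaptor of integrin signalling in myeloid cells, read 11.35, 11.16 and 11.24 in Chrm1-/- HSCs, against 10.97, 10.82 and 11.07 in WT HSCs. In each of these 3 genes all Chrm1-/- arrays lay above all WT arrays. In all, 6 of the 58 genes had groups that did not overlap, 10.3% beside 5.79% of all tested genes, 5 of them higher and 1 lower in Chrm1-/-. The other 3 were Itgb1, Arhgef6, an exchange factor that binds Git proteins, with a log2 difference of 0.12, and Rap1b, a small GTPase that activates integrins, with -0.12. The log2 differences were 0.66 ± 0.20 for Cd151, 0.73 ± 0.19 for Git1 and 0.30 ± 0.12 for Skap2 (SE, n = 3 each), with unadjusted p of 0.0165, 0.00795 and 0.0445 in limma and adjusted p of 0.996. Git1 kept an unadjusted p under 0.05 in all 6 fits that left out 1 array, Cd151 in 4 and Skap2 in 1. Skap2 had an unadjusted p of 0.0765 in limma with the replicate number as a block and of 0.0522 with array median centring.

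**Figure D4:**
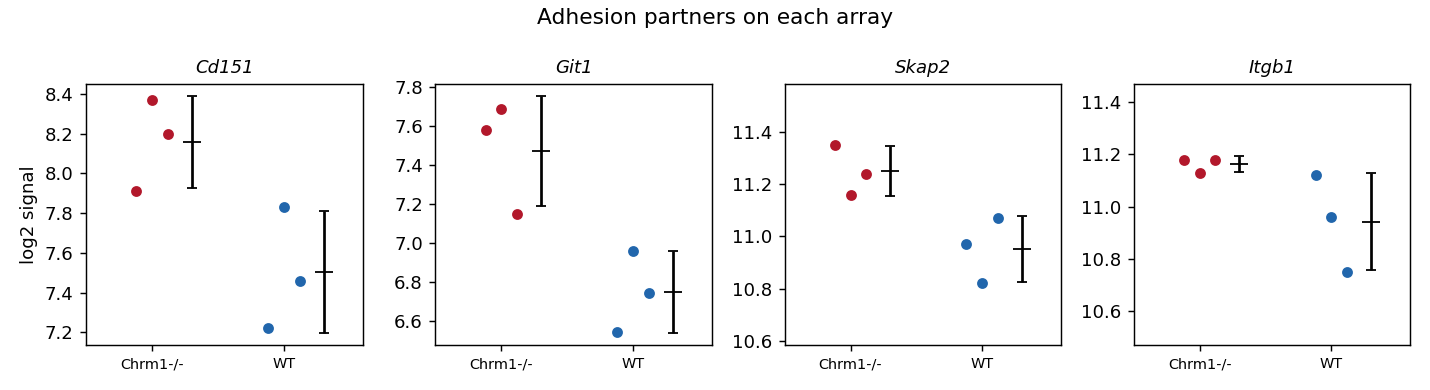
Log2 signal (y axis) of the adhesion partners Cd151, Git1, Skap2 and Itgb1 on the 3 Chrm1-/- and 3 WT arrays, 1 point per array in the order of replicates 1 to 3, with the mean and SD beside the points; each panel has its own y range. All Chrm1-/- points lie above all WT points in the 4 panels, by 0.01 in the case of Itgb1.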

How the data were processed

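RNA from sorted HSCs was amplified with a NuGEN system and hybridised to the GeneChip mouse gene 2.0 ST array from Affymetrix, and chips were processed in the maker's TAC software, per the series design text. The sources used here name no version, summarization or normalization. Each deposited value belongs to 1 cluster on 1 array and was taken as log2 signal, since values ran from 3.02 to 13.67. A cluster's summary does not separate splice forms.

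Of 41345 clusters, those with several symbols (1814) or none (16010) were left out, and 23521 stayed. A gene with more than 1 cluster (1082 genes) was represented by the one of highest mean signal. Genes with a mean of at least 6.77 were fitted as Chrm1-/- minus WT with limma 3.58.1 (lmFit and eBayes) under R 4.3.3. Tests were two-sided, with Benjamini-Hochberg adjustment over all 11094 genes and a threshold of 0.05. The test was checked on data simulated with the genes' own means and spreads. After adjustment it called 16% of 50 genes changed 1.5-fold and 40% of 50 changed 2-fold. At an unadjusted p under 0.05 in limma it called 80% and 98% of them. Most changes of these sizes were thus missed at the adjusted threshold in the simulation. It also held 50 genes changed 4-fold and 50 changed 8-fold, which ease the adjusted threshold for the others. With 0 genes called in the real data, these rates need not hold there. Tables and figures were made in Python 3.11.15 (pandas 2.3.3, numpy 2.4.6, matplotlib 3.10.9).

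The genes and lists were chosen with earlier results of these data known. Values per array are given for adhesion genes with an unadjusted p under 0.05 or groups that do not overlap, for a set with known roles in HSC adhesion, and for at most 4 genes of each further list with an unadjusted p under 0.05. Itgb1, Itgb1bp1, Arhgef6, Rap1b, C1qa, C1qb, Kit, Fgd5, Cd48, Chrm1, Cdh2 and the genes named under other observations lie outside this rule and were chosen after their values were seen. The same holds for the megakaryocyte, neutrophil, endothelial, T and natural killer cell markers named singly. Alternatives were the signal filter, normalization, cluster choice, moderation, array weights, the replicate block and leaving out each array. The number of arrays limits the precision.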

Additional observations from a re-analysis of the deposited data

How the results depend on the processing

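Alcam, Itga2 and Itgb2 were the adhesion genes with an unadjusted p under 0.05 in limma under 8 of 15 alternatives, and Alcam was among them under all 15. With genes at or above the 75th percentile of signal the count was 1, since Itga2 and Itgb2 were then not tested, and the median of the adhesion genes was 0.13. On leaving out each array in turn the count ran from 1 to 4 and the median from -0.0025 to 0.0883; it was 1 without Chrm1-/- replicate 1. Cd99l2, named after its values were seen, joined without WT replicate 2. Over all genes the count at an unadjusted p under 0.05 in limma was 332, with 567 without the signal filter, 169 at the 75th percentile and 335 to 522 on leaving out 1 array, the highest without WT replicate 3. After adjustment the count was 0, and 0 to 1 on leaving out 1 array, with Snord49a called without Chrm1-/- replicate 3 and Gdpd3 without WT replicate 1. Leaving out genes with the same value on 4 or more arrays, chosen after seeing the data, called the same 3 adhesion genes. Small differences changed sign: Itgav was 0.045 with the mean of all clusters and 0.0061 with array weights, Itgal 0.0142 with array weights, and Cd47 -0.0033 with median centring and -0.0207 with array weights. On leaving out 1 array, sign changes gave ranges of -0.1617 to 0.0483 for Itga6, -0.0133 to 0.1467 for Itga5, -0.1017 to 0.0183 for Itgav, -0.1833 to 0.0767 for Itgal, -0.1617 to 0.0033 for Itgb7, -0.005 to 0.4567 for Emcn, -0.0633 to 0.0167 for Cd93, -0.0867 to 0.1233 for Jam3, -0.1167 to 0.1183 for Cd47 and -0.465 to 0.06 for Fermt3. Procr lost its unadjusted p under 0.05 in limma in all 6 such fits, with quantile normalization (0.0604), with an intensity trend (0.113) and with the replicate block (0.0983). The cause of these changes was not tested. Replicates of the same number shared no deviation (r of -0.031, 0.009 and -0.011 over tested genes). These values cannot show whether arrays of the same number were handled together. The replicate block gave 396 genes at an unadjusted p under 0.05 and the same 3 adhesion genes.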

Other observations

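Deposited values repeated across arrays. In every pair of arrays, the genes with equal values to 2 decimals numbered 2.78 to 4.03 times the mean of the numbers lying 0.01 above and 0.01 below. Of the 22180 genes, 652 (2.94%) had the same value on 4 or more arrays. Among the adhesion genes these were Cdh2, Itga8 and Itgad, all below the signal filter, and 0 of the 28 tested adhesion genes. Itga8 read 6.05 on all 3 Chrm1-/- arrays, against 6.05, 6.09 and 6.18 on the WT arrays. Of 6734 genes with exactly 1 tied pair, the pair held ranks 3 and 4 of the 6 values in 2325 genes and ranks 1 and 2 in 473.

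Among genes that work with the adhesion receptors, Rasgrp2, an activator of Rap1 in blood cells, read 8.37, 8.29 and 8.79 in Chrm1-/- HSCs, against 8.51, 7.53 and 7.70 in WT HSCs. Git2, a relative of Git1, read 9.0, 9.39 and 8.65 in Chrm1-/- HSCs, against 9.36, 9.52 and 9.37 in WT HSCs. Both genes had overlapping groups. The log2 difference was 0.73 for Git1 and -0.40 for Git2, and whether these differ was not tested.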
